A study of Homo sapiens with 4 samples.

Results

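The trophoblast is the outer cell layer of the placenta, and the 34 genes described here are genes known mainly from it. They were chosen by name, with earlier results of these arrays known, and include transcription factors, hormones, fusion proteins of retroviral origin, proteases, secreted lectins and X-linked genes of the XAGE and PAGE family. Of the 34, 33 had a probe set annotated with that single symbol, among 18417 genes with such a probe set, and HLA-G was not analysed here. Where a gene had several probe sets, the one selected on measured values was that with the highest mean over the arrays. Of the 33 genes, 22 had a mean log2 intensity at or above a floor of 4.845, the 40th percentile of all probe sets, as did 12900 genes in all. The 11 others lay under it and are close to background.

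The cells were Caco-2, an established line from a human colorectal adenocarcinoma with enterocyte features after confluence. They grew on regular 6-well plates or on collagen-coated Transwell inserts, porous membranes with an apical and a basolateral side, and received vehicle or 2 mM sodium cholate, a primary bile acid salt, for 3 h. Cholate went into the apical compartment of the inserts, in a calcium-free salt solution, and the sources used here do not say what the vehicle was. Each of the 4 conditions was measured on 1 array with RNA pooled from 3 samples, so no difference below has a replicate check or a p-value. Per the labels all 4 had 21 days of differentiation, whereas the growth protocol has plates used earlier than some inserts, so support and culture age cannot be told apart. In bulk RNA, fewer cells that express a gene and less of its RNA per cell cannot be told apart either.

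In the placenta, trophoblast stem-like cells depend on TFAP2, GATA and TEAD family factors. The factor GCM1 turns on the syncytins, envelope proteins of ancient retroviruses that fuse trophoblast cells into the syncytiotrophoblast, which secretes hormones, pregnancy-specific glycoproteins and galectins. Several of these genes are also known to be active in cancer cell lines.

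The label was set against the levels. All 11 measured intestinal epithelium markers of a list of 14 lay above the floor, with means from 6.08 to 12.7 log2, among them the adhesion protein gene EPCAM. The hormone and secreted protein genes known from the syncytiotrophoblast were on both sides of the floor. Of 5 hormone and steroid synthesis members 3 lay above it (HSD3B1, KISS1 and PGF), and of 5 measured surface and secreted members 3 did (LGALS14, LGALS16 and SIGLEC6). From a further list of trophoblast genes, CSH2 and CSHL1 of the placental lactogen family and the pregnancy-specific glycoprotein genes PSG4 and PSG9 were above it too, with means of 5.42, 5.74, 5.54 and 5.06. Of the 31 measured genes of that list 13 were under it. Among them were PSG2, PSG3, PSG6, PSG11 and GH2, under it on all 4 arrays, with means of 2.775, 3.16, 3.37, 3.38 and 3.86. INSL4, PSG1, PAPPA, PAPPA2 and LGALS13 were under it on all 4 arrays, and so were PAGE4, ADAM12, PLAC4, DLX5 and TFPI2. CGA, the common alpha subunit of glycoprotein hormones, read 5.20 in plate vehicle and 4.66, 4.32 and 4.40 in plate cholate, Transwell vehicle and Transwell cholate, so it was above the floor on 1 array. Of all 18417 genes, 12900 lay above the same floor, so these counts do not set the trophoblast genes apart from other genes. The label thus names a gene list, of which a part read above the floor in intestinal-type cells.

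**Figure D1:**
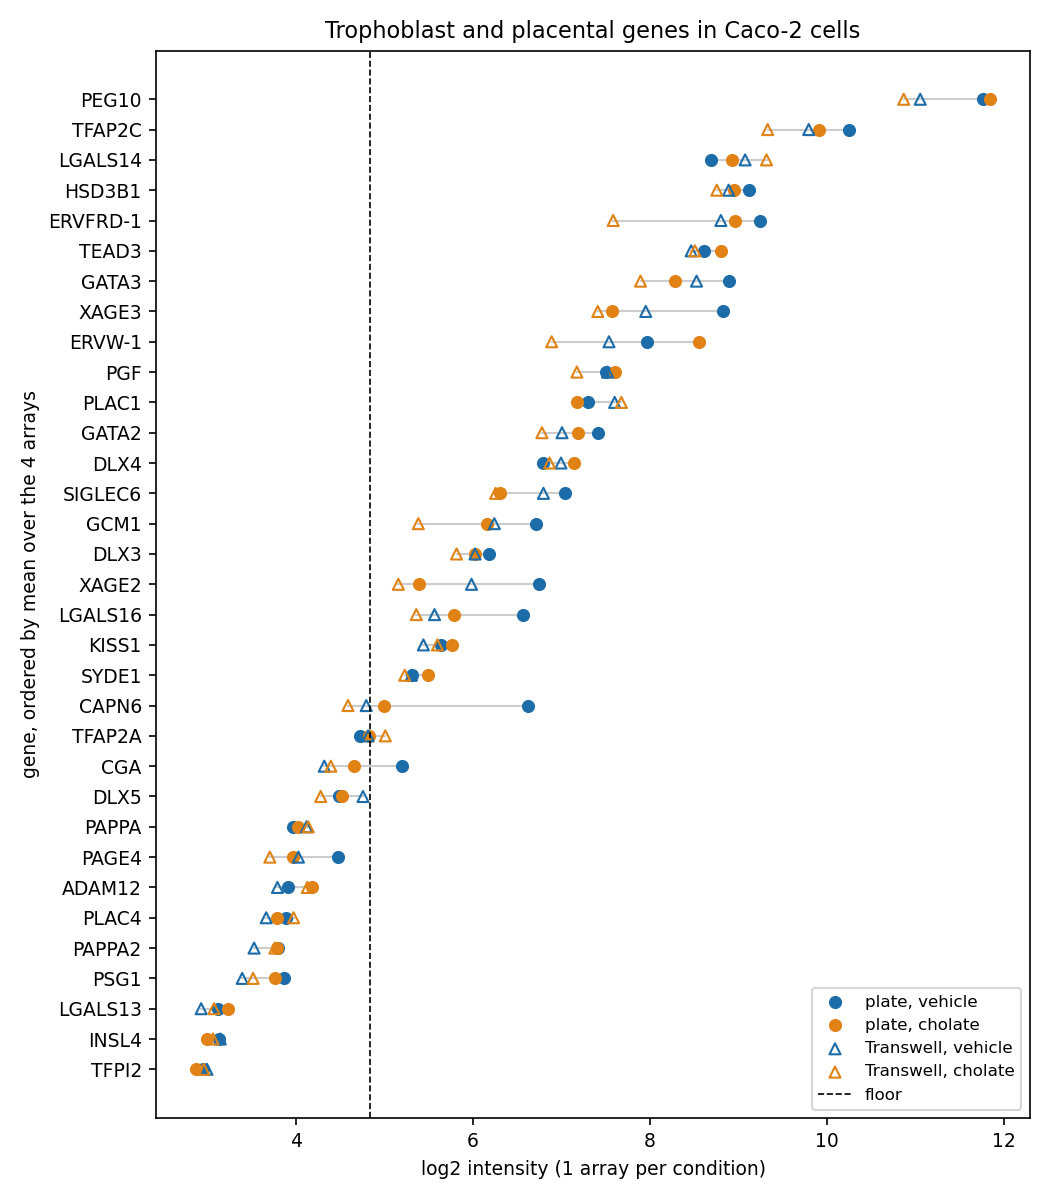
Log2 intensity of the 33 measured genes (x axis) on each of the 4 arrays, genes ordered by their mean (y axis). Circles are plates, triangles Transwell inserts, blue vehicle and orange cholate, and the dashed line is the floor of 4.845. For 12 of the 22 genes above the floor, plate vehicle is the rightmost point and Transwell cholate the leftmost. Positions of different genes are not comparable, since each probe set has its own brightness.

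The promoter windows of the placental galectin genes are shown first, because LGALS14 and LGALS16 had opposite signs in all 4 comparisons between arrays, and their sequences upstream are close copies. These comparisons come from the same 4 arrays and are not independent. LGALS14 reached 1.5-fold in none of these comparisons. LGALS13, LGALS14 and LGALS16 encode placental galectins, sugar-binding proteins, and lie in 1 cluster on chromosome 19. The windows run from 250 bases before to 50 after the annotated start, are from RefSeq on GRCh38.p14, and lie on the plus strand at chr19:39704231-39704530 (LGALS14), chr19:39655663-39655962 (LGALS16) and chr19:39602274-39602573 (LGALS13). Capitals mark the letters AGATAA, the core a GATA factor binds, here on the reverse strand, and GGAATG, the core a TEAD factor binds, on the forward strand.
LGALS14: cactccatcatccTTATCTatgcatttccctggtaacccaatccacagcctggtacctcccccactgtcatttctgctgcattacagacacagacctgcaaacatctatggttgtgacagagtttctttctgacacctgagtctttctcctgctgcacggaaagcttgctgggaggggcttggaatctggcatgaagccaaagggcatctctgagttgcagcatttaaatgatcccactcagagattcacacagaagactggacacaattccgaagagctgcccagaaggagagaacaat
LGALS16: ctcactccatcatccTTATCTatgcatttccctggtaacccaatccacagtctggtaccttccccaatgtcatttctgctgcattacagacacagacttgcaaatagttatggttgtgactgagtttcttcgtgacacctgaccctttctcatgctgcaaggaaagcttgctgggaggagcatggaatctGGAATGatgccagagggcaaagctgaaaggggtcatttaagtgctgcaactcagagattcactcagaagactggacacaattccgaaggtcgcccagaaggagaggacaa
LGALS13: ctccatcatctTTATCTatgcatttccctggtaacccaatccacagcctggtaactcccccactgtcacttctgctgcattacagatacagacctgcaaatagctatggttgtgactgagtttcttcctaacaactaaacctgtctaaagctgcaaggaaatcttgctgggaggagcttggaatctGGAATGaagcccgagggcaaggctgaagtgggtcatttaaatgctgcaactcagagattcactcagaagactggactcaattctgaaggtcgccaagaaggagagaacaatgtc

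Aligned end to end, LGALS14 and LGALS16 had 262 identical bases over 302 positions (86.8%), LGALS13 and LGALS16 87.8%, and LGALS13 and LGALS14 84.8%. AGATAA was present in each of the 3 windows. GGAATG was present in LGALS16, at bases 191 to 196 of the window counted from its 5′ end, and in LGALS13, at bases 187 to 192. LGALS14 did not have these letters: at their place it differed from LGALS16 by the substitution A193C, which is 1 of many differences between the windows. Whether any of them bears on the measured levels was not tested, and LGALS13, which has GGAATG, was under the floor. Over all 35116 promoter windows of this length, GGAATG was found on either strand in 14.0% and AGATAA in 10.3%.

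XAGE2 and XAGE3 are X-linked genes of the cancer testis family that the placenta also expresses, and their differences between arrays were similar. Their windows lie at chrX:52368771-52369070 on the plus strand and chrX:52868034-52868333 on the minus strand, and capitals mark GGAATG on the reverse strand.
XAGE2: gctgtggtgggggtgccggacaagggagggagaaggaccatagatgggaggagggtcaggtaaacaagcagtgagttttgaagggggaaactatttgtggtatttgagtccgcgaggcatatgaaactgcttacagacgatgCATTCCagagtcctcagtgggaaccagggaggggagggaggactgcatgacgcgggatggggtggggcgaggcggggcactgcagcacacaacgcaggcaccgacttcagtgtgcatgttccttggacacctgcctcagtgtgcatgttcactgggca
XAGE3: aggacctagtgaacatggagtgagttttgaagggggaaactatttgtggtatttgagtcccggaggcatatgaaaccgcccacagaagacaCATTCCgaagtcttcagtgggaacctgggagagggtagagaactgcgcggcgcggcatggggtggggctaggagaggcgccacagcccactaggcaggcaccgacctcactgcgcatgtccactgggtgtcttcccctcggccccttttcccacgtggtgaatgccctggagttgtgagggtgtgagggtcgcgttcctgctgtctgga

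These windows were 57.5% identical, with 1 GGAATG match each, at bases 143 to 148 in XAGE2 and 92 to 97 in XAGE3. The 27 members with a promoter sequence had 42 windows between them. GGAATG was in 10 of the 42, beside 14.0% of all windows, and these belonged to GATA3, LGALS13, LGALS16, PAGE4, PLAC1, SYDE1, XAGE2 and XAGE3. GCCNNNGGC, the TFAP2 core, was in 7 of the 42 (ADAM12, GATA2, GATA3 and SYDE1), beside 23.2% of all windows. AGATAA was in 6 of the 42, beside 10.3%, and the GCM1 core ATGCGGG in 1 (TFPI2), beside 1.9%. The windows are not independent: those of PAGE4 overlap, as do those of HSD3B1, and those of LGALS13 and LGALS16 are close copies. The counts therefore cannot be read as an enrichment. Such a match describes letters in a window and does not show that a factor binds there.

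The first comparison was cholate against vehicle on each support. On the plate, 6 of the 22 genes above the floor were at least 1.5-fold lower in cholate, where 2.35% of all 12900 genes were, and 1 was higher, where 1.49% were. CAPN6, 1 of the 6, passed the floor through plate vehicle alone, so its place in this count follows from that filter. On Transwell 5 were lower, against 0.736% of all genes, and 0 higher, against 0.357%. GATA3 and XAGE2 were lower on both, against 0.504% of all genes. Which genes were lower on both depended on the scaling: quantile normalization gave XAGE2 and GCM1, and centring the arrays on their medians gave 5 genes (GATA3, GCM1, SIGLEC6, XAGE2 and XAGE3). The median response of the 22, in log2 units, was -0.16 for plates and -0.21 for Transwell, beside -0.025 and -0.011 over all genes, and over the 33 measured genes it was -0.11 and -0.14. The central 95% of all genes lay between -0.57 and 0.45 on the plate and between -0.37 and 0.33 on Transwell, which is the scale against which single values can be read. These counts describe genes picked with the results known and give no evidence about the group.

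Among the transcription factors, GATA3, a zinc finger factor of trophoblast and of T cells, read 8.89 in plate vehicle, 8.29 in plate cholate, 8.53 in Transwell vehicle and 7.90 in Transwell cholate. Cholate was lower on each support by nearly the same amount, 1.52-fold and 1.55-fold, and both lay outside the central 95% of all genes. The plate value sat near the threshold, at -0.60 log2, and was -0.58 after quantile normalization, short of 1.5-fold. GATA2, its relative from blood and placenta, read 7.42, 7.19, 7.01 and 6.78 in the same order, at -0.23 log2 on each support, within that central range. TFAP2C, the AP-2 gamma factor of trophoblast, read 10.25, 9.92, 9.80 and 9.33, at -0.33 and -0.46. For these 3 genes plate vehicle was the highest array and Transwell cholate the lowest. GCM1, the regulator of syncytin genes, read 6.71, 6.16, 6.25 and 5.39, which is 1.46-fold lower with cholate on the plate and 1.81-fold lower on Transwell.

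The homeobox factors differed little. DLX3, which controls placental and skin genes, read 6.19, 6.03, 6.03 and 5.82 (-0.16 and -0.21 log2). DLX4 read 6.79, 7.15, 6.998 and 6.87, higher with cholate on the plate by 0.35 and at -0.13 on Transwell. DLX5 stayed under the floor, between 4.28 and 4.76. TEAD3, a DNA-binding partner of YAP that is abundant in placenta, read 8.61, 8.80, 8.47 and 8.51, and TFAP2A read 4.73, 4.83, 4.82 and 5.01. TFAP2A passed the floor by the smallest margin of the members, with a mean of 4.847, and the next gene outside it was CGA at 4.645.

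The X-linked genes showed large cholate differences. XAGE2 read 6.75 in plate vehicle, 5.39 in plate cholate, 5.99 in Transwell vehicle and 5.16 in Transwell cholate. It was 2.56-fold lower with cholate on the plate and 1.77-fold lower on Transwell. Its 2 probe sets held identical values on every array, so they count as 1 measurement. XAGE3 read 8.83, 7.58, 7.96 and 7.41, which is 2.38-fold and 1.46-fold lower with cholate. In cholate the plate and Transwell values of each gene were close together, whereas in vehicle the plate value was the higher. Close copies of this family may share probes, so the values of the single genes are uncertain. PAGE4, another family member, was under the floor (3.71 to 4.48). PLAC1, a placental membrane-associated protein gene on the X chromosome, read 7.31, 7.18, 7.61 and 7.68, with no response past 0.13 log2 in size.

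The member genes derived from retroviruses or a retrotransposon differed more between supports in cholate than in vehicle. ERVFRD-1 encodes syncytin-2 and ERVW-1 syncytin-1. ERVFRD-1 read 9.24 in plate vehicle and 7.59 in Transwell cholate, with 8.97 and 8.81 in plate cholate and Transwell vehicle. Cholate was 2.33-fold lower on Transwell and 1.21-fold lower on the plate. ERVW-1 read 7.97 and 8.56 in vehicle and cholate on the plate and 7.54 and 6.89 on Transwell. It was 1.502-fold higher with cholate on the plate and 1.57-fold lower on Transwell, and was the single member past 1.5-fold in opposite directions. The plate value sat at the threshold, at 0.59 log2, and centring the arrays on their medians gave 0.52. PEG10, an imprinted gene derived from a retrotransposon that the placenta needs, read 11.77, 11.85, 11.06 and 10.87, with responses of 0.08 and -0.19.

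**Figure D2:**
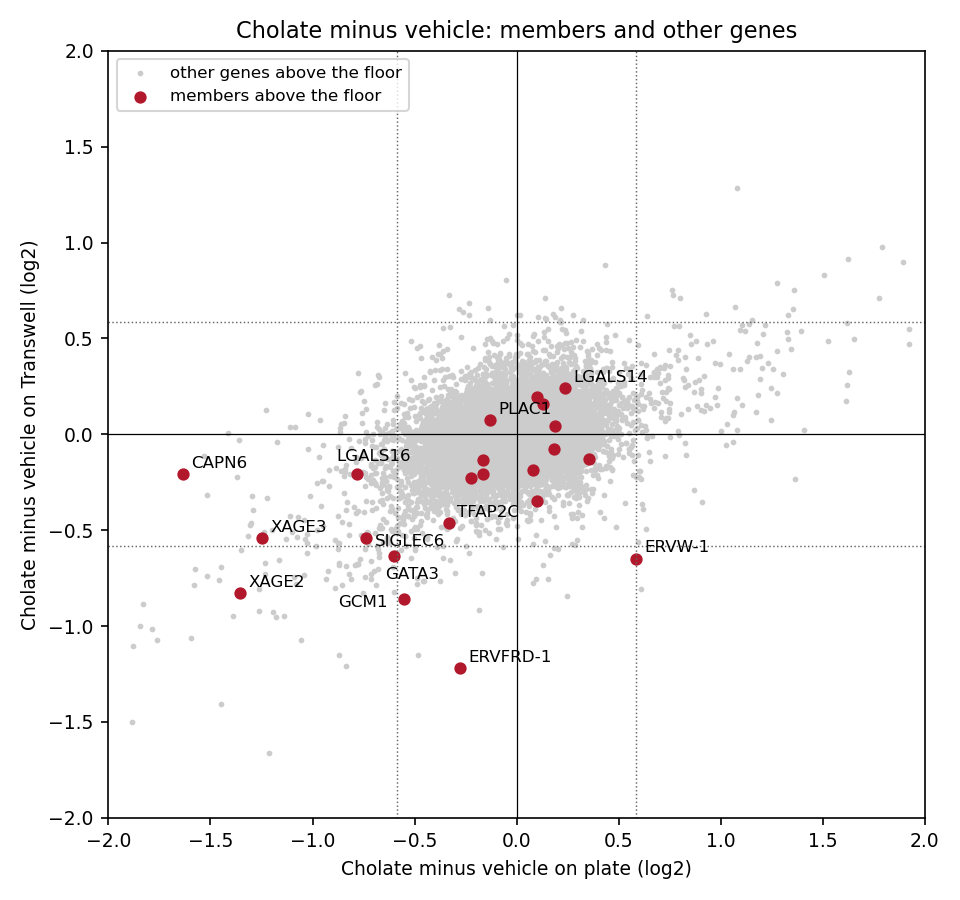
Cholate minus vehicle on the plate (x axis, log2) against the same difference on Transwell (y axis, log2) for the 22 genes above the floor (red) and the other genes above it (grey), with dotted lines at 1.5-fold. XAGE2 and GATA3 lie beyond the lines at lower left, CAPN6 at far left and ERVFRD-1 at the bottom, and 9 other genes lie outside the axes. The pairs of arrays behind the axes share no array.

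Among the secreted and surface proteins, SIGLEC6, a receptor of placental trophoblast and B cells that binds sialic acid, read 7.04, 6.30, 6.80 and 6.26. It was 1.67-fold lower with cholate on the plate and 1.45-fold lower on Transwell. LGALS16 read 6.57, 5.79, 5.57 and 5.36, at 1.72-fold and 1.15-fold lower. LGALS14 read 8.69, 8.93, 9.08 and 9.32 and was higher with cholate by 0.24 log2 on each support. LGALS14 thus ran in the reverse order of LGALS16, with plate vehicle lowest and Transwell cholate highest. LGALS13, the third gene of the cluster, was under the floor throughout (2.93 to 3.24). Given the similarity of these genes, probes of one may also pick up another, which was not tested. PSG1, of the pregnancy-specific glycoproteins, was under the floor (3.40 to 3.87), and its other probe sets are shared with its relatives and were not used.

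CAPN6, a calpain-like protein without protease activity that is known from placenta, read 6.63 in plate vehicle, 4.99 in plate cholate, 4.80 in Transwell vehicle and 4.59 in Transwell cholate. It was 3.11-fold lower with cholate on the plate. Both Transwell values lay under the floor, so a further decrease could hardly show there, and the gene passed the floor through plate vehicle alone. The metalloproteases PAPPA and PAPPA2, which cleave insulin-like growth factor binding proteins, and ADAM12 were under the floor, between 3.53 and 4.19. TFPI2, a protease inhibitor of placenta, was under it as well, between 2.88 and 3.00.

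The hormone and steroid synthesis members above the floor differed less. HSD3B1, the placental enzyme that makes progesterone, read 9.12, 8.96, 8.89 and 8.76, at -0.16 and -0.13 log2 with cholate. KISS1, which encodes the kisspeptin peptides, read 5.64, 5.77, 5.44 and 5.602, higher with cholate by 0.13 and 0.16. PGF, the placental growth factor that binds FLT1, read 7.51, 7.61, 7.53 and 7.18, at 0.10 on the plate and -0.35 on Transwell. SYDE1, which has a role in placenta, read 5.31, 5.50, 5.31 and 5.23. None of these 4 genes reached 1.5-fold in any of the 4 comparisons. INSL4, a relaxin-like hormone gene, and PLAC4 were under the floor (2.99 to 3.15 and 3.67 to 3.98). The steroid synthesis genes CYP19A1 and CYP11A1, outside the member list, differed more with cholate and are given below.

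The second comparison was Transwell against plate within each treatment. In vehicle, 5 of the 22 genes above the floor were at least 1.5-fold lower on Transwell, against 3.16% of all genes, and 0 were higher, against 1.93%. For 1 of the 5, CAPN6, the Transwell value lay under the floor, and 4 were left when both arrays had to be above it. In cholate 4 were lower, against 3.75%, and 0 higher, against 4.02%. PEG10 alone was at least 1.5-fold lower in both treatments, as were 1.84% of all genes. The sign was below 0 in both treatments for 17 of the 22, where 33.2% of all genes had it, and above 0 in both for 3 (TFAP2A, LGALS14 and PLAC1). The median was -0.30 log2 in vehicle and -0.28 in cholate, beside 0.016 and 0.020 over all genes, and -0.23 and -0.24 over the 33 measured genes. These counts too describe genes picked with the results known and give no evidence about the group.

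The genes past 1.5-fold were mostly not the same in both treatments. In vehicle they were LGALS16 (2.00-fold), XAGE3 (1.83-fold), XAGE2 (1.70-fold), PEG10 (1.63-fold) and CAPN6, which read 6.63 on the plate and was under the floor on Transwell, so that no fold is given. In cholate they were ERVW-1 (3.17-fold), ERVFRD-1 (2.60-fold), PEG10 (1.97-fold) and GCM1 (1.71-fold). LGALS16, XAGE2 and XAGE3 were highest in plate vehicle, with Transwell vehicle below it, and their gaps between supports were smaller in cholate: 1.34-fold, 1.18-fold and 1.12-fold lower on Transwell. XAGE2 and XAGE3 also read higher in Transwell vehicle than in either cholate array. ERVW-1, ERVFRD-1 and GCM1 were lowest in Transwell cholate, with smaller gaps in vehicle: 1.35-fold for ERVW-1, 1.36-fold for ERVFRD-1 and 1.38-fold for GCM1. TFAP2C in cholate, at -0.58 log2, lay just short of 1.5-fold. PLAC1 stood highest on Transwell relative to the plate in cholate, at 0.50, followed by LGALS14 at 0.39 in each treatment. Because each comparison of supports reuses an array of each comparison of treatments, a single high or low pool would appear in both.

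**Figure D3:**
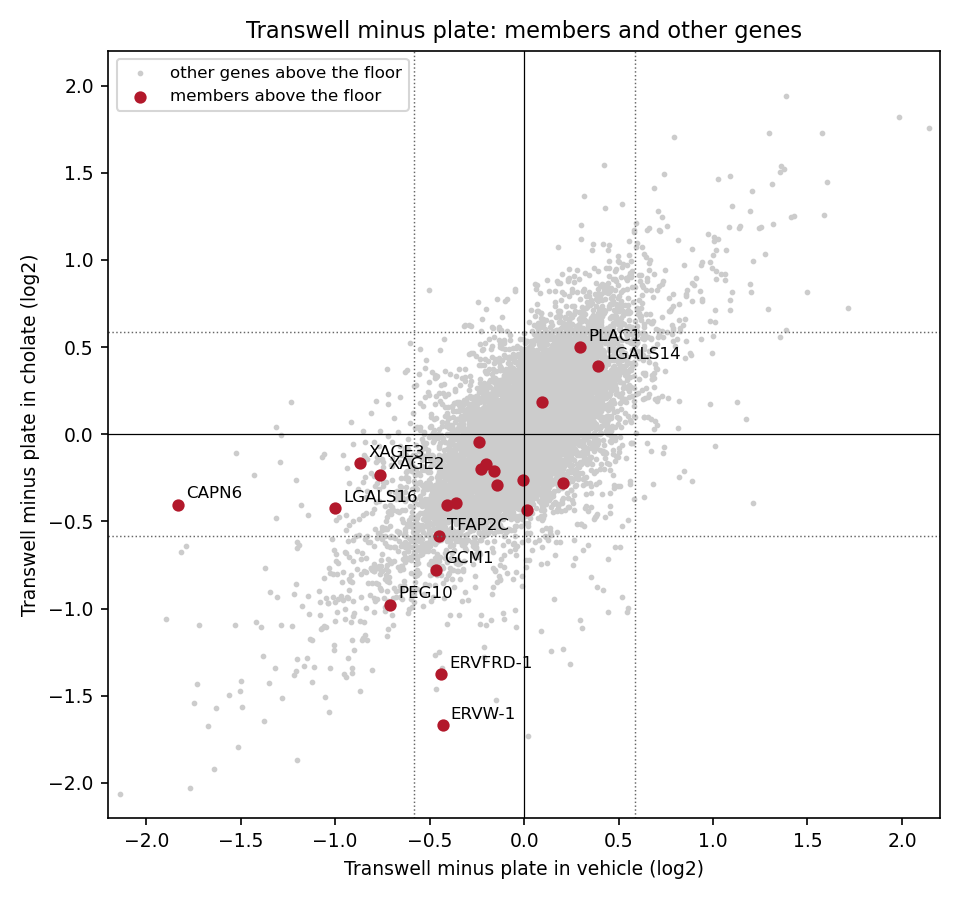
Transwell minus plate in vehicle (x axis, log2) against the same difference in cholate (y axis, log2) for the 22 genes above the floor (red) and the other genes above it (grey), with dotted lines at 1.5-fold. CAPN6, LGALS16, XAGE3 and XAGE2 extend to the left and ERVW-1 and ERVFRD-1 downwards, PEG10 lies beyond both lower lines, and 9 other genes lie outside the axes.

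The highest and lowest arrays were compared gene by gene. Plate vehicle was the highest array and Transwell cholate the lowest for 12 of the 22 genes, as for 12.4% of all genes above the floor. The 12 were TFAP2C, GATA2, GATA3, GCM1, DLX3, HSD3B1, ERVFRD-1, CAPN6, SIGLEC6, LGALS16, XAGE2 and XAGE3. CAPN6 passed the floor through plate vehicle alone, so its highest array follows from that filter. The members were picked with the results known, so the count gives no evidence about the group. LGALS14 had these extremes reversed, and so did TFAP2A, which was under the floor on all arrays but Transwell cholate. The spread from lowest to highest array had a median of 0.71 log2 over the 22 genes, against 0.31 over all genes above the floor, and was wide for ERVW-1 (1.67), ERVFRD-1 (1.66) and XAGE2 (1.59). That of CAPN6 (2.04) reached into values under the floor.

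The difference of the cholate responses, Transwell minus plate, described how far the supports answered alike. It was -0.03 log2 for GATA3, -0.001 for GATA2 and 0.003 for LGALS14, where the levels on the supports ran in parallel. It was 0.71 for XAGE3, 0.58 for LGALS16 and 0.53 for XAGE2, whose response was larger in size on the plate. For CAPN6 it is not given, since both Transwell values were under the floor. It was -1.24 for ERVW-1, -0.94 for ERVFRD-1, -0.48 for DLX4 and -0.45 for PGF. The central 95% of all genes above the floor lay between -0.47 and 0.51, and this difference uses all 4 arrays.

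**Figure D4:**
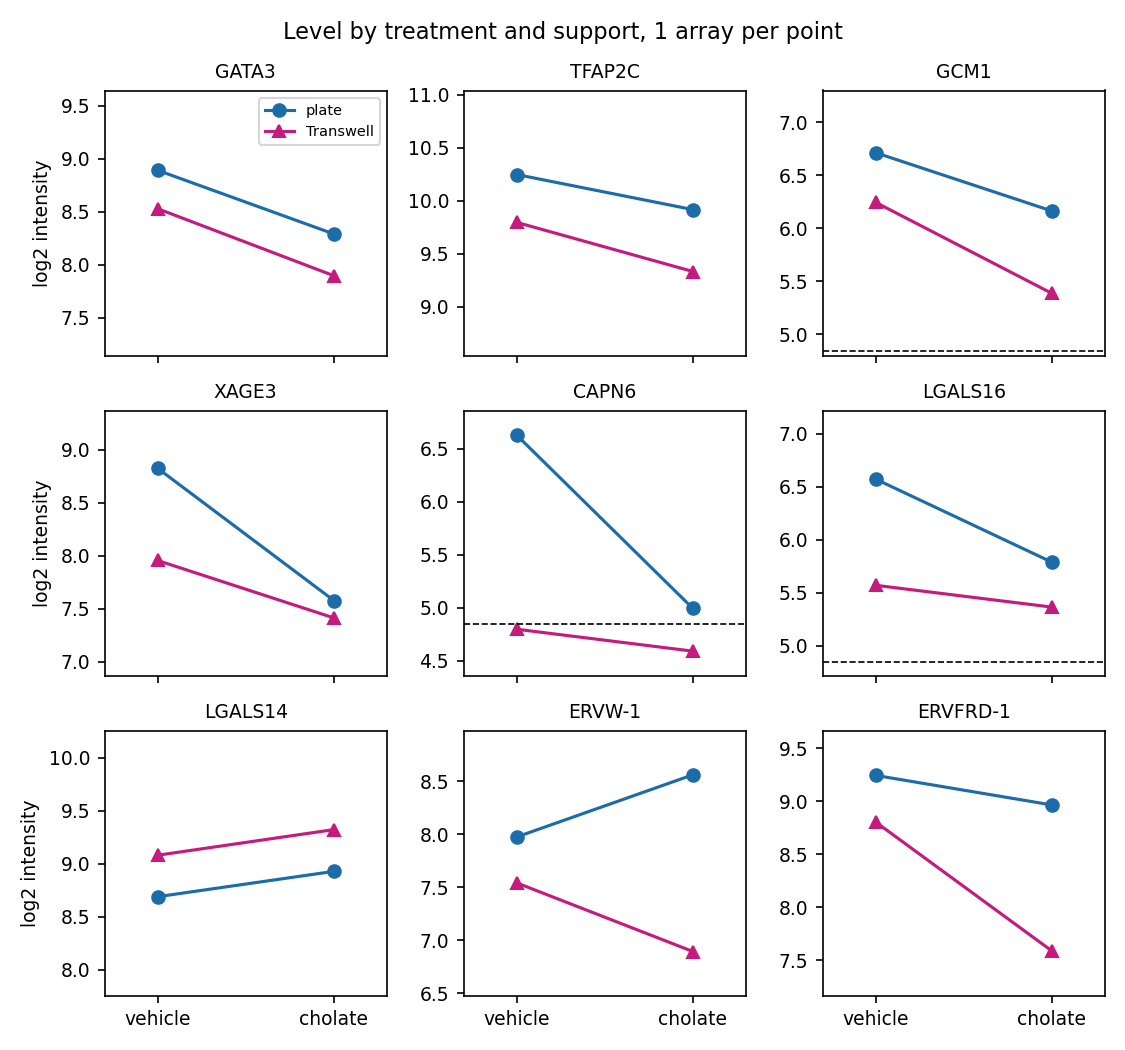
Log2 intensity (y axis, each panel spanning the same number of log2 units) in vehicle and cholate (x axis) for 9 genes, with plates as blue circles and Transwell as magenta triangles, 1 array per point and the floor dashed where it is in range. The lines of GATA3 and LGALS14 run in parallel, those of XAGE3 converge in cholate, those of CAPN6 meet near the floor, and those of ERVW-1 and ERVFRD-1 move apart.

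Other trophoblast genes, from a list drawn up with earlier results of these arrays known, were also counted. Of 40 listed, 31 were measured and 18 lay above the floor. On the plate 3 of the 18 were at least 1.5-fold lower in cholate and 1 higher, beside 2.35% and 1.49% of all genes, and on Transwell 2 were lower and 0 higher, beside 0.736% and 0.357%. VGLL1, a TEAD cofactor of trophoblast, read 9.07 in plate vehicle, 7.23 in plate cholate, 8.11 in Transwell vehicle and 7.11 in Transwell cholate. CYP19A1, the aromatase that makes estrogens, read 8.53, 7.40, 7.91 and 6.96, the same order of arrays as for XAGE2 and GCM1. CYP11A1, which starts steroid synthesis from cholesterol, read 7.32, 6.43, 7.21 and 6.65. The placental lactogen and chorionic gonadotropin beta genes CSH1, CGB3, CGB5 and CGB8 were not analysed here.

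Partners and receptors of the members were counted next, with 21 of 23 measured and 14 above the floor. Of these 1 was at least 1.5-fold lower with cholate on both supports, beside 0.504% of all genes, and 0 were higher on either. This was NRP1, a coreceptor for PGF and VEGF proteins, which read 8.21, 6.95, 7.66 and 6.85. SLC1A4, a neutral amino acid transporter related to the syncytin-1 receptor, was lower on Transwell by support, reading 6.22 and 6.12 on the plate and 5.33 and 5.09 on the inserts. Transwell minus plate was below 0 in both treatments for 11 of the 14 genes, beside 17 of the 22 members and 33.2% of all genes. VEGFA, a growth factor of the PGF family, was higher with cholate by 0.40 and 0.24 log2.

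Markers of other cell types were set beside these results. Of the 11 intestinal markers, 4 were at least 1.5-fold higher on Transwell in vehicle and 4 in cholate, beside 1.93% and 4.02% of all genes. In both treatments 0 were lower, beside 3.16% and 3.75%. For cholate 0 passed 1.5-fold, where 2.35% of all genes were lower and 1.49% higher on the plate, and 0.736% and 0.357% on Transwell. By sign of the support difference, 6 markers were above 0 in both treatments, 2 below 0 in both and 3 opposite. GPA33, an intestinal surface antigen, was higher on Transwell by 1.24 and 1.18 log2, and the intestinal galectin LGALS4 by 1.14 and 1.18. Over all 11 markers the median support difference was 0.11 log2 in vehicle and 0.05 in cholate. The members' lower values on Transwell thus went with higher ones for a part of the intestinal markers only. The part of culture maturity in them was not tested. Of 8 fibroblast markers 4 were above the floor, and of 5 measured leukocyte markers 3. Above the floor were the fibroblast genes COL1A1, COL1A2, COL3A1 and PDGFRA and the leukocyte genes CD68, CD14 and LYZ. The fibroblast genes DCN, LUM, VIM and THY1 and the leukocyte genes PTPRC and CD3E were under it. Over all 8 fibroblast genes the median level on the 4 arrays lay between 4.71 and 4.78, under the floor, and over the 4 above it between 5.47 and 5.82. Over the 5 measured leukocyte genes it lay between 5.57 and 6.30, and over the 3 above the floor between 8.39 and 8.79. The array medians over all probe sets lay between 5.64 and 5.73, and the arrays correlated at 0.978 to 0.995 over genes above the floor.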

How the data were processed

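RNA of Caco-2 cells was measured on 4 arrays, 1 per combination of support and treatment, each holding a pool of RNA from 3 samples. The authors deposited 1 log2 intensity for each probe set and array, which the submitters' processing notes credit to RMA; the software and its version are not given in the sources used. RMA corrects background and normalizes between arrays, so a shift common to most transcripts is removed and differences near background are compressed. The number of arrays limits the precision.

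Genes came from the platform annotation of 33297 probe sets (19460 with 1 symbol, 1754 with several, 12083 not listed), with symbols updated by gene number through RefSeq (GRCh38.p14). Differences of log2 values were computed with Python 3.11.15, pandas 2.3.3 and numpy 2.4.6, and genes past 1.5-fold were counted, members beside all genes above the floor. The counting code was checked on simulated data. No test was run, since no condition was repeated. Other normalizations, floors, probe set choices and a 2-fold threshold were tried as alternatives. The members and lists were chosen with earlier results of these data known. Every member was named, and at most 4 genes per other list, those with the largest mean difference. All genes named to describe a list's absent or shared markers come from the same lists. Promoter windows were searched on both strands. Positions of the probe sets are not given because their build was not stated.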

Additional observations from a re-analysis of the deposited data

Results flagged for a closer look

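ERVW-1, which encodes syncytin-1, was at least 1.5-fold apart in opposite directions on the supports: higher with cholate on the plate (7.97 and 8.56 log2 in vehicle and cholate) and lower on Transwell (7.54 and 6.89). The Transwell response minus the plate response was -1.24 log2. The plate value sat at the threshold, and centring the arrays on their medians lowered it from 0.59 to 0.52 log2, short of 1.5-fold, so that the opposite calls did not both hold there. With 1 array per condition the difference was not tested.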

How the results depend on the processing

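Centring each array on its median, quantile normalization of the deposited values and averaging a gene's probe sets moved no member's difference by more than 0.1 log2. The median shift over all genes above the floor was largest in size for cholate on the plate under centring, at -0.071 log2. Centring ended the ERVW-1 call on the plate (0.52) and gained GCM1 there (-0.62) and SIGLEC6 and XAGE3 on Transwell (each -0.59), which gave 7 members there in place of 5. It turned the sign of TEAD3 on Transwell (-0.003) and of SYDE1 in vehicle (0.010). Quantile normalization ended the GATA3 call on the plate (-0.58) and gained GCM1 there (-0.61) and TFAP2C by support in cholate (-0.62), and left 21 members above the floor, since TFAP2A dropped under it. At 2-fold the counts of members apart were 3 for cholate on the plate, 1 on Transwell, and 2 for support in vehicle and 2 in cholate. With the floor at the 60th percentile, which left 14 members, the first 3 of these comparisons gave 4, 3 and 2 at 1.5-fold, and the sign was the same in both cholate responses for 9 and in both support differences for 12. The count lower with cholate on both supports, 2 as deposited, was 5 after centring, 1 (GATA3) at the 60th percentile floor and 0 at 2-fold; these alternatives for it were chosen after seeing the data. The other counts stayed within 1.5 times and the medians within 0.1 log2, also with no floor, where the 33 genes gave 7, 5, 6 and 4. No paired analysis was possible because each condition had 1 array. No array could be left out for the same reason. Signal near background limits the 11 genes under the floor, CAPN6 on Transwell and TFAP2A on all arrays but Transwell cholate.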

Other observations

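Endogenous retroviral envelope genes outside the syncytins were measured for 6 of 8 listed genes, 5 of them above the floor. ERVH48-1, which encodes suppressyn, a secreted inhibitor of syncytin-1, read 8.54 in plate vehicle, 7.64 in plate cholate, 7.96 in Transwell vehicle and 7.16 in Transwell cholate. It was lower with cholate, at -0.89 for plates and -0.80 for Transwell in log2 units, whereas ERVW-1 stood at 0.59 and -0.65. ERVMER34-1 read 7.53, 6.84, 7.34 and 6.83, at -0.69 and -0.51 with cholate. ERVK13-1 stood at -0.38 and -0.08 and ERV3-1 at 0.26 and -0.18.

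Paralogs of the members were measured for 35 of 43 listed genes, 25 above the floor. With cholate 2 of these were at least 1.5-fold lower and 1 higher on the plate, beside 2.35% and 1.49% of all genes. On Transwell 0 passed 1.5-fold, where 0.736% of all genes were lower and 0.357% higher. TEAD1 read 8.72, 8.07, 8.44 and 7.88, at -0.66 and -0.56 log2 with cholate, beside 0.19 and 0.04 for TEAD3. DLX2 was higher with cholate by 0.75 on the plate and 0.13 on Transwell. CAPN2, the large subunit of a classical calpain, read between 10.02 and 10.61, at 0.07 and -0.16, beside -1.64 on the plate for CAPN6. Of 17 imprinted genes 11 were measured and 6 lay above the floor. Transwell minus plate was below 0 in both treatments for 5 of the 6, beside 33.2% of all genes. SGCE, the neighbour of PEG10 in the RefSeq table, stood at -0.44 in vehicle and -0.20 in cholate, beside -0.71 and -0.98 for PEG10. CDKN1C stood at -0.25 and -0.38 and PHLDA2 at -0.36 and -0.73.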
